A study of Mus musculus with 8 samples.

Results

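The genes that build cholesterol and fatty acids were followed in blood stem and progenitor cells lacking Traf6. The 31 genes were taken from a list of mevalonate, sterol and fatty acid synthesis enzymes and of the regulators of sterol regulatory element-binding proteins (SREBPs), and were found by symbol and Entrez identifier in tables of 24112 genes. The rule is pathway membership and uses no measured value, though the list was chosen with earlier results of these data known. All 31 were found, and all 31 passed the filter on low values. RNA was taken after transplantation from LSK cells of C57BL/6 mice, the lineage- Sca1+ Kit+ marrow cells among which blood stem cells and the earliest progenitors are found. The donor marrow was Traf6-/-;Vav-Cre+ in the KO group (4 libraries, KO1 to KO4) and Vav-Cre+ with Traf6 intact in the WT group (4 libraries, WT1 to WT4). Cre was thus present in both groups, under the Vav promoter that is active in blood lineages, and both groups had passed through a transplanted host. Age, time since transplantation, pooling of mice and the number of host cells left in the sort: none is given in the sources used here. The labels do not tie libraries to individual mice, and p-values here therefore cover only the spread between libraries, part or all of which may be technical.

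Cholesterol is built from acetyl-CoA. Acetyl-CoA units are condensed and reduced to mevalonate, mevalonate is phosphorylated and decarboxylated to isoprene units, and these are joined to farnesyl diphosphate, the branch point that also feeds protein prenylation, ubiquinone and dolichol. Squalene is then formed, closed into lanosterol and trimmed to cholesterol. Fatty acids start from the same acetyl-CoA, which ATP citrate lyase supplies in the cytosol, and are lengthened and desaturated after synthesis. SREBP transcription factors drive both branches: the SCAP protein carries them from the endoplasmic reticulum to the Golgi for cleavage when sterols are low, and INSIG proteins hold them back when sterols are high. Dividing blood cells use both products for membranes.

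SREBPs bind sterol regulatory elements, often beside the CCAAT box of the factor NF-Y, and 4 promoters are shown to let these letters be seen beside the expression values. They are the 250 bases before the start site, from RefSeq on build GRCm38.p6, in the direction of the gene. The deposited values were made on build mm9, per the submitters' processing notes, and are given per gene with no coordinates. Capitals mark CCAAT, or ATTGG on the other strand, and the SREBP element TCACNCCAC, or GTGGNGTGA on the other strand; the motifs were searched on both strands and 2 of the CCAAT matches in Fasn share letters. Hmgcs1 is shown as the member with a match to the SREBP element, Mvk for its 5 CCAAT boxes, Fasn as the fatty acid synthase gene, and Fads2 because its KO and WT values did not overlap.
Hmgcs1, chr13:119690101-119690350, plus strand: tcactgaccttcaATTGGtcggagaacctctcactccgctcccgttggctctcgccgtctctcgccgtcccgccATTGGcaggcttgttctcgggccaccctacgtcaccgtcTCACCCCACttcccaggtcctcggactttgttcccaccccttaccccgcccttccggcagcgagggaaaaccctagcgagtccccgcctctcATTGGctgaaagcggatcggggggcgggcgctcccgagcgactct
Mvk, chr5:114444019-114444268, plus strand: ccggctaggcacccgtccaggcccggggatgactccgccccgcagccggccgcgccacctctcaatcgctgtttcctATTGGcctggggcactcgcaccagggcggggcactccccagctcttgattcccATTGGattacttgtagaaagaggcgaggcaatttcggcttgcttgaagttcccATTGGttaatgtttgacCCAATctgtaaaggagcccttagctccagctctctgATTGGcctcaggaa
Fasn, chr11:120824548-120824797, minus strand: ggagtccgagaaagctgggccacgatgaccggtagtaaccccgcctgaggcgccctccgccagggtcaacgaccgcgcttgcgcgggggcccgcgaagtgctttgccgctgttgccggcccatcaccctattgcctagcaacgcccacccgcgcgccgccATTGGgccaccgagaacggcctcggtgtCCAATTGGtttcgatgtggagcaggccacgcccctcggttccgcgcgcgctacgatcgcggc
Fads2, chr19:10101504-10101753, minus strand: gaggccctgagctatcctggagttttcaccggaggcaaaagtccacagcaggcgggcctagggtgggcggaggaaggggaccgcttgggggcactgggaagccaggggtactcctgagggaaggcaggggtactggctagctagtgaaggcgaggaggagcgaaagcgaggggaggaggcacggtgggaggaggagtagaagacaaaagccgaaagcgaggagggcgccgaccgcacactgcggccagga
Of the 31 genes, 24 had a promoter in the RefSeq table. At least 1 CCAAT box was found in 18 of these 24 (75.0%), against 37.5% of all 27025 genes in the table. Counted over promoters, since a gene can have several, the share was 63.3% of 30 against 33.9% of 32851. The SREBP element was found in Hmgcs1 alone, 1 of 24 (4.17%), against 1.23% of all genes. In Hmgcs1 it begins 137 bases before the start site, between CCAAT boxes at 176 and 45 bases. The Fads2 window holds neither motif. A match is a description of the letters and not a binding site. Only exact matches were taken, so the lack of a match does not show that an element is absent.

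The series as a whole set the precision of what follows. Values are RPKM (reads per kilobase of gene and per 1e6 reads). Depth, estimated from the steps between low values in units of 1e6 reads in genes, was 22.5 to 30.6 in KO libraries and 19.3 to 24.8 in WT libraries. Traf6 was at 0.613, 0.818, 0 and 0.00721 RPKM in KO1 to KO4, against 14.9, 3.52, 9.40 and 7.10 RPKM in WT1 to WT4. Every KO library was lower, with a log2 difference of -2.75 ± 0.53 (SE), a limma adjusted p of 0.341 and an exact permutation p of 0.0286. By their library names, KO3 and KO4 ran on lane 5 and the other 6 libraries on lane 4, which ties lane partly to genotype. Among the 3943 genes averaging above 20 RPKM, 175 were at 0 in KO3 and 61 in KO4, against 6 to 47 in the other 6 libraries. A value of 0 is therefore written as listed at 0. Of the gate's own markers, Kit was at 50.6 to 113 RPKM in KO and 73.8 to 83.1 RPKM in WT, and Ly6a, which encodes Sca1, at 6.53 to 10.9 RPKM in KO and 7.31 to 11.8 RPKM in WT. The lymphoid markers Cd79a and Ms4a1 were listed at 0 in all 8 libraries. Of 6 adipocyte markers 5 were listed at 0 in all 8 libraries, and the sixth, Fabp4, was above 0 in WT4 alone, at 3.13 RPKM.

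None of the 31 genes passed the test for a difference between KO and WT. The test was limma on log2(RPKM + 1), with Benjamini-Hochberg adjustment over all 11276 tested genes and a threshold of 0.05. It called 0 of 31 members against a background of 0% (0 of 11276 genes), and the smallest adjusted p of a member was 0.465, for Fdps. At an unadjusted p under 0.05 stood 3 of 31 members (9.68%), against 847 of all tested genes (7.51%). By direction, 2 were higher in KO (background 2.77%) and 1 was lower (background 4.74%). The 4 KO and 4 WT values did not overlap in 2 members, both higher in KO, where 2.05% of all genes lay wholly above in KO, 3.88% wholly below and 5.92% apart in either direction. Over both directions these shares lie near the background, and with so few genes behind them no result about the members is read from them. The median log2 difference, KO minus WT, was 0.14 over the 31 members and -0.14 over all tested genes. With quantile normalization the median was 0.34 over the members and -0.00 over all tested genes, and 20 of 31 differences were positive. Positive differences were seen in 17 members and negative ones in 14, and 20 of 31 lay above the median of all genes. The median of the members ranged between 0.04, without KO2, and 0.39, without KO4, and was 0.05 without WT1, 0.10 without WT3 and 0.26 in lane 4 alone.

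**Figure D1:**
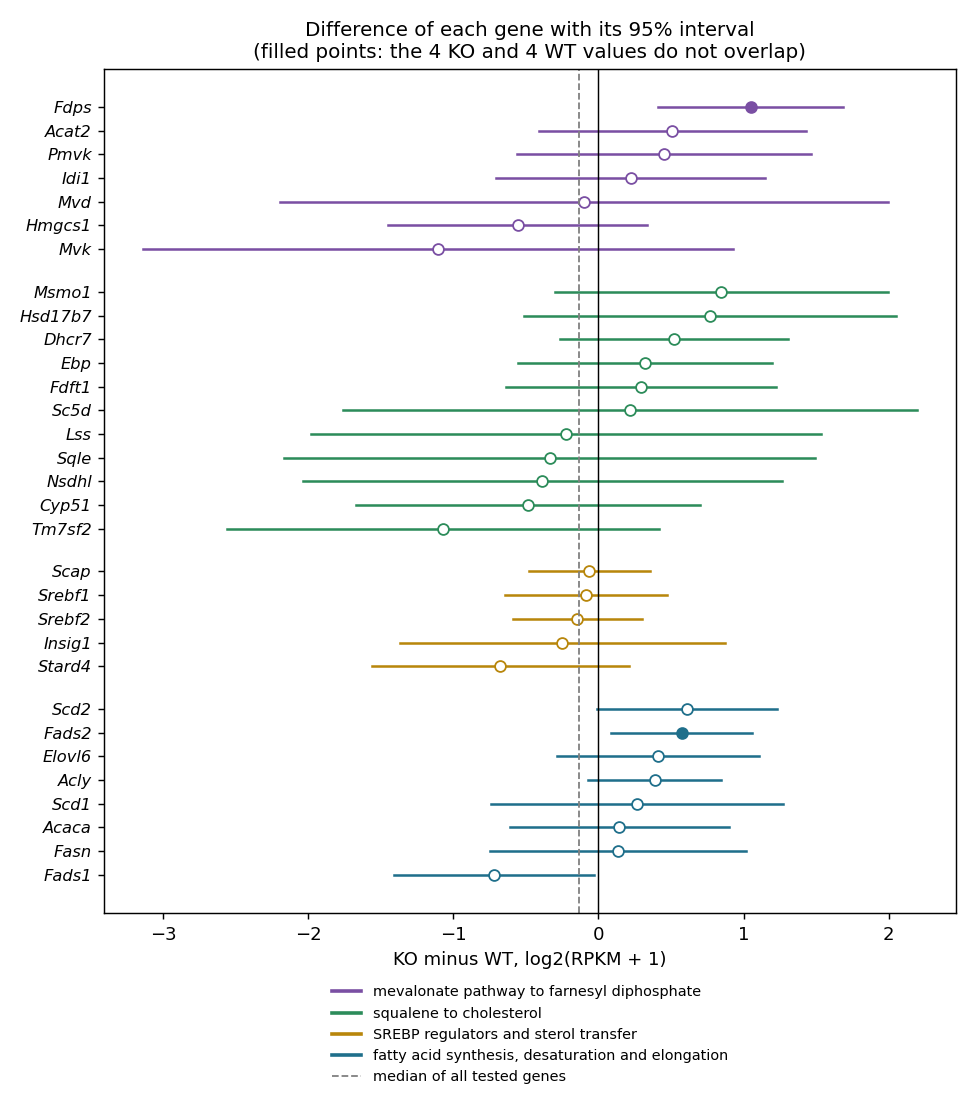
Log2 difference, KO minus WT on the log2(RPKM + 1) scale (horizontal axis), of each of the 31 genes with its 95% limma interval, not adjusted for the number of genes, grouped by role. Fdps and Fads2, the filled points, are the genes whose KO and WT values do not overlap, and the dashed line is the median of all tested genes at -0.14.

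Levels spanned a wide range across the pathway. Acly, which encodes ATP citrate lyase, had the highest mean over the 8 libraries at 78.0 RPKM, followed by the desaturase gene Scd2 at 59.4, the SREBP gene Srebf2 at 59.1, Fdps at 47.3 and Acat2 at 34.2 RPKM. The lowest were Hsd17b7 at 2.51 RPKM and Mvd at 3.31 RPKM. Spread between libraries differed as widely. Among the members with no value listed at 0, the coefficient of variation in KO lay between 5.47% for Pmvk and 132.5% for Sc5d. In WT it lay between 3.60% for Scap and 99.2% for Hsd17b7.

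**Figure D2:**
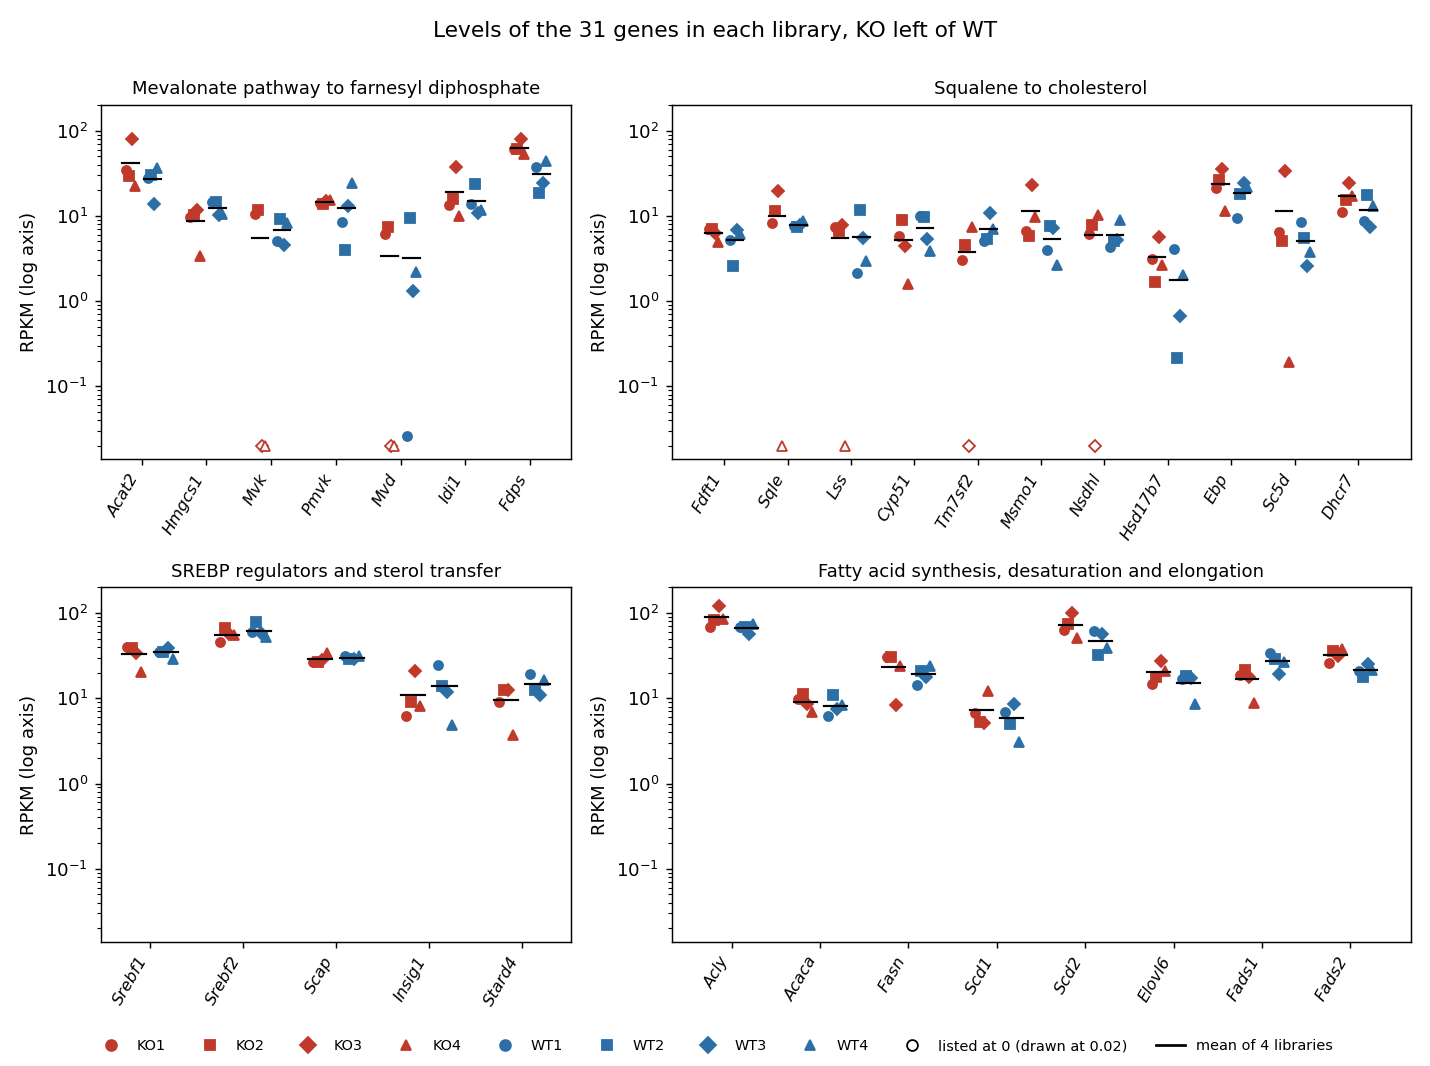
RPKM on a log axis (vertical) of each of the 31 genes in the 4 KO libraries (red, left) and the 4 WT libraries (blue, right), with the group mean as a black bar; open symbols drawn at 0.02 are values listed at 0. Fdps and Fads2 show KO points above all WT points, and the open symbols belong to KO3 and KO4 alone.

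In the mevalonate pathway, the enzyme that makes farnesyl diphosphate had the highest mean level and was the one gene whose groups did not overlap. Fdps, farnesyl diphosphate synthase, was at 60.4, 60.3, 79.6 and 52.6 RPKM in KO1 to KO4, against 37.8, 18.7, 24.4 and 44.6 RPKM in WT1 to WT4. All 4 KO values lay above all 4 WT values, and the means were 63.2 ± 11.5 RPKM in KO and 31.4 ± 11.9 RPKM in WT (SD, n = 4 each). The log2 difference was 1.05 ± 0.29 (SE), with a 95% interval of 0.41 to 1.69 before any adjustment and a limma adjusted p of 0.465. The 2-sided exact permutation p of the mean was 0.0286, the smallest that 70 assignments of 4 and 4 libraries allow. In the lane 4 libraries alone the difference was 0.9998 (adjusted p = 0.348), and over the fits that left out a library it lay between 0.84 and 1.24. Of the 50-base stretches of Fdps transcripts, 26.2% also occur in transcripts of other annotated genes, among them Gm43738, which overlaps it on the same strand, and Gm3571, so its reads may be shared.

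Acat2, the cytosolic thiolase that opens the pathway, was at 34.2, 29.3, 80.1 and 22.3 RPKM in KO1 to KO4, against 27.8, 29.8, 13.9 and 36.2 RPKM in WT1 to WT4. KO3 was the highest library and the groups overlapped (log2 difference 0.51 ± 0.41, adjusted p = 0.752). Of its 50-base stretches 39.1% also occur in Acat3 or Tcp1, so its reads too may be shared. Idi1, the isomerase of the isoprene units, was also highest in KO3: it was at 37.1 RPKM there, against 10.1 to 15.7 RPKM in the other KO libraries and 10.7 to 23.9 RPKM in WT. Its log2 difference was 0.22 over all libraries and -0.14 without KO3.

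Hmgcs1, the synthase that forms HMG-CoA, was lower on average in KO. Its values were 9.62, 10.3, 11.8 and 3.34 RPKM in KO1 to KO4, against 14.3, 14.6, 10.4 and 10.4 RPKM in WT1 to WT4. Of the KO libraries, KO3 alone lay within the WT range, and the log2 difference of -0.56 ± 0.40 did not pass (adjusted p = 0.734). Without KO3 the groups did not overlap, with a difference of -0.72, and without KO4 the difference was -0.20. Pmvk, phosphomevalonate kinase, was even across KO at 13.7 to 15.3 RPKM and spread over 3.93 to 24.0 RPKM in WT.

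The kinase Mvk and the decarboxylase Mvd, which act before and after Pmvk, showed the same split among the KO libraries. Mvk was at 10.6 and 11.7 RPKM in KO1 and KO2 and listed at 0 in KO3 and KO4, against 5.07, 9.07, 4.55 and 8.22 RPKM in WT1 to WT4. Mvd was at 6.12 and 7.39 RPKM in KO1 and KO2 and listed at 0 in KO3 and KO4, against 0.0262, 9.41, 1.32 and 2.17 RPKM in WT1 to WT4. For Mvk the lane 4 KO libraries thus lay above all 4 WT libraries and the lane 5 KO libraries below them. The log2 difference of Mvk was -1.10 ± 0.91 over all libraries and 0.70 ± 0.35 in lane 4 alone (adjusted p = 0.499). That of Mvd was -0.10 ± 0.94 over all libraries and 1.37 ± 0.81 in lane 4 alone. Leaving out values listed at 0 drops KO3 and KO4 for Mvk, so the same 0.70 follows from the lane 4 libraries. For Mvd, whose mean is below the 5 RPKM that this alternative asks for, they were not left out.

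The 11 genes from squalene to cholesterol showed 6 positive and 5 negative differences, with a median of 0.22. Their 2 most expressed members were Ebp, the sterol isomerase, and Dhcr7, a reductase of the final steps. Ebp was at 21.2, 26.5, 35.7 and 11.3 RPKM in KO1 to KO4, against 9.52, 18.1, 24.2 and 21.6 RPKM in WT1 to WT4. Dhcr7 was at 10.9, 15.5, 24.2 and 17.01 RPKM in KO1 to KO4, against 8.66, 17.5, 7.38 and 13.1 RPKM in WT1 to WT4. In both genes the groups overlapped and KO3 was the highest of the 8 libraries (0.32 ± 0.39 for Ebp and 0.52 ± 0.35 for Dhcr7). None of the 11 had an unadjusted limma p under 0.05.

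The gap between KO3 and KO4 was widest in the sterol desaturase Sc5d. It was at 6.46, 5.13, 33.4 and 0.193 RPKM in KO1 to KO4, against 8.41, 5.42, 2.55 and 3.78 RPKM in WT1 to WT4. KO3 was thus above and KO4 below every WT library. Its log2 difference was 0.22 over all libraries and -0.58 without KO3. Sqle, the squalene epoxidase, was at 8.29, 11.4 and 19.7 RPKM in KO1 to KO3 and listed at 0 in KO4, against a narrow 7.31 to 8.72 RPKM in WT. Its difference was -0.34 over all libraries and 0.60 without KO4. Lss, which closes the ring of lanosterol, was at 7.41, 6.58 and 7.74 RPKM in KO1 to KO3 and listed at 0 in KO4, against 2.11, 11.7, 5.56 and 2.99 RPKM in WT1 to WT4.

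Among the enzymes that trim the lanosterol ring, leaving out 1 library turned the sign of Nsdhl but not of Msmo1, Tm7sf2, Cyp51 or Hsd17b7. Msmo1, the sterol methyl oxidase, was at 6.59, 5.80, 23.3 and 9.58 RPKM in KO1 to KO4, against 3.97, 7.54, 7.26 and 2.62 RPKM in WT1 to WT4 (0.85 ± 0.52). Nsdhl, the decarboxylating dehydrogenase that acts after it, was at 6.11, 7.73 and 10.1 RPKM in KO1, KO2 and KO4 and listed at 0 in KO3, against 4.25 to 9.01 RPKM in WT. Tm7sf2, a sterol reductase, was at 2.997, 4.51 and 7.42 RPKM in KO1, KO2 and KO4 and listed at 0 in KO3, against 5.09 to 10.7 RPKM in WT (-1.07 ± 0.67). Without KO3 the Tm7sf2 difference was -0.44. Cyp51, the lanosterol demethylase, was at 1.58 to 8.86 RPKM in KO and 3.89 to 9.83 RPKM in WT. Hsd17b7, the ketoreductase, was at 1.67 to 5.69 RPKM in KO and 0.216 to 4.09 RPKM in WT. Fdft1, squalene synthase, was at 4.98 to 7.07 RPKM in KO and 2.61 to 6.74 RPKM in WT. The Fdft1 transcripts overlap those of Ctsb on the opposite strand, and no source used here says whether counting used strand.

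The genes of the SREBP system itself overlapped between the groups in every case. Srebf2, which encodes the SREBP that mainly drives sterol genes, was at 45.4, 66.3, 56.8 and 55.6 RPKM in KO1 to KO4, against 59.9, 78.5, 57.6 and 52.9 RPKM in WT1 to WT4. Srebf1, which encodes the SREBP that mainly drives fatty acid genes, was at 40.0, 39.4, 33.96 and 20.3 RPKM in KO1 to KO4, against 35.3, 34.6, 39.2 and 29.2 RPKM in WT1 to WT4. Scap, the escort protein gene, averaged 28.8 ± 3.51 RPKM in KO and 30.0 ± 1.08 RPKM in WT (SD, n = 4 each). The log2 differences were -0.15 (95% interval -0.59 to 0.30) for Srebf2, -0.09 (-0.64 to 0.47) for Srebf1 and -0.06 (-0.48 to 0.36) for Scap. These intervals leave room for modest differences in either direction. The sign for Srebf1 turned in lane 4 alone (0.20).

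The sterol-responsive genes of this group were more variable. Insig1, which retains SCAP in the endoplasmic reticulum, was at 6.17, 9.16, 20.6 and 8.18 RPKM in KO1 to KO4, against 24.4, 14.1, 11.8 and 4.88 RPKM in WT1 to WT4, with wide overlap. Stard4, a cytosolic sterol carrier gene, was at 9.13, 12.4, 12.5 and 3.75 RPKM in KO1 to KO4, against 19.2, 12.5, 11.1 and 16.4 RPKM in WT1 to WT4 (-0.68 ± 0.40, adjusted p = 0.699). All 5 regulators had negative differences, with a median of -0.15 against -0.14 over all tested genes. With quantile normalization their median was -0.12 against -0.00 over all tested genes, and all 5 were negative. In lane 4 alone it was -0.16 against -0.02, with 4 of 5 negative, and without KO3 it was -0.16 against -0.05.

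The fatty acid genes showed 7 positive differences of 8, with a median of 0.33, or 0.40 with quantile normalization. Acly was at 68.4, 83.0, 120.6 and 84.6 RPKM in KO1 to KO4, against 67.8, 67.8, 56.8 and 74.7 RPKM in WT1 to WT4. KO1 alone of the KO libraries lay within the WT range, and the difference of 0.39 ± 0.21 did not pass (adjusted p = 0.684). It was 0.18 in lane 4 alone and 0.23 without KO3. Scd2, a stearoyl-CoA desaturase that adds the double bond of oleate, was at 62.8, 74.6, 99.8 and 50.3 RPKM in KO1 to KO4, against 60.8, 31.8, 56.2 and 38.9 RPKM in WT1 to WT4. KO4 alone lay within the WT range (0.61 ± 0.28, adjusted p = 0.665). Its paralog Scd1 was far lower, at 5.10 to 12.1 RPKM in KO and 3.10 to 8.66 RPKM in WT; 4.56% of its 50-base stretches occur in other genes, with Scd3 and Scd2 among them.

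Fads2 and Fads1, the desaturase genes of polyunsaturated fatty acids, had differences of opposite sign. Fads2 was at 25.8, 35.6, 30.9 and 37.6 RPKM in KO1 to KO4, against 20.8, 17.8, 25.5 and 21.7 RPKM in WT1 to WT4. The lowest KO value, in KO1, lay just above the highest WT value, in WT3. Over all genes RPKM summed to 497308 in KO1 and 473767 in WT3, a wider relative gap, so this order depends on the scaling. Overlap was read from the RPKM as deposited and was not counted after quantile normalization. The Fads2 difference was 0.57 ± 0.22 (limma adjusted p = 0.634, exact permutation p = 0.0286). Fads1 was at 18.6, 21.3, 17.7 and 8.88 RPKM in KO1 to KO4, against 34.05, 28.7, 19.4 and 26.7 RPKM in WT1 to WT4. KO2 alone of the KO libraries lay within the WT range, and the difference was -0.72 ± 0.31 (limma adjusted p = 0.645). In lane 4 alone the differences were 0.49 for Fads2 and -0.41 for Fads1, where neither had an unadjusted p under 0.05, and without KO4 that of Fads1 was -0.46. The ratio of Fads1 to Fads2 within a library, chosen after the values were seen and given with no test, was 0.720, 0.597, 0.572 and 0.236 in KO1 to KO4, against 1.63, 1.61, 0.763 and 1.23 in WT1 to WT4. Fads1 exceeded Fads2 in WT1, WT2 and WT4 and in no KO library.

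Fasn, fatty acid synthase, was at 30.2, 30.6, 8.38 and 23.9 RPKM in KO1 to KO4, against 14.3, 21.1, 17.95 and 23.9 RPKM in WT1 to WT4. KO1, KO2 and, by a narrow margin, KO4 lay above every WT library and KO3 below every one. The difference was 0.13 ± 0.40 over all libraries, 0.65 ± 0.26 in lane 4 alone (adjusted p = 0.403) and 0.54 without KO3, where the groups did not overlap. Acaca, the acetyl-CoA carboxylase gene that supplies malonyl-CoA, was at 6.84 to 11.4 RPKM in KO and 6.14 to 10.9 RPKM in WT. Elovl6, the elongase of long saturated chains, was at 14.8 to 27.6 RPKM in KO and 8.58 to 18.2 RPKM in WT. Both overlapped between the groups.

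Summed over the genes of a role, the level shows which libraries carry these patterns. The fatty acid genes summed to 237.1, 279.4, 318.8 and 245.5 RPKM in KO1 to KO4, against 227.9, 201.3, 209.2 and 205.9 RPKM in WT1 to WT4, so that all KO sums lay above all WT sums. The lowest KO sum, in KO1, lay close to the highest WT sum, in WT1. Over all genes RPKM summed to 497308 in KO1 and 468926 in WT1, a wider relative gap. The separation of the fatty acid sums thus depends on the scaling of the libraries. Acly and Scd2 make up much of these sums, and the sums were not tested. The mevalonate genes summed to 148.3, 148.3, 223.5 and 103.6 RPKM in KO1 to KO4, against 107.2, 109.4, 78.5 and 137.3 RPKM in WT1 to WT4, with overlap. For the sterol genes the KO sums reached 160.4 RPKM in KO3 and 64.9 RPKM in KO4, on either side of the WT range of 68.7 to 90.6 RPKM. The regulators summed to 122.0 to 153.8 RPKM in KO and 134.3 to 169.6 RPKM in WT.

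**Figure D3:**
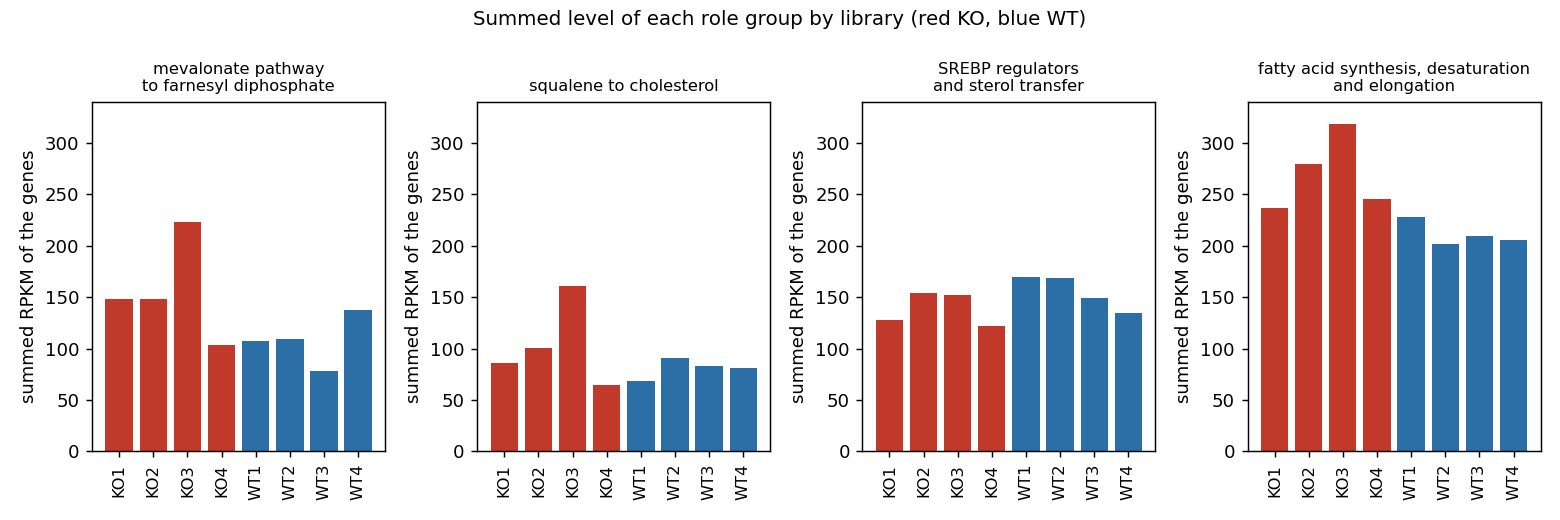
Summed RPKM (vertical axis, from 0) of the genes of each role in every library, KO libraries in red on the left and WT libraries in blue on the right. KO3 has the highest bar for the mevalonate, sterol and fatty acid genes. For the fatty acid genes all 4 KO bars exceed the WT bars, KO1 by a narrow margin over WT1 that depends on the scaling of the libraries.

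KO3 and KO4 differed more from each other than KO1 did from KO2. KO3 held the highest value of the 8 libraries in 12 of 31 members (38.7%), against 22.3% of all tested genes. KO4 held the lowest value alone in 9 of 31 (29.0%), against 14.7% of all tested genes. Each listed 4 members at 0 (12.9%), Mvk and Mvd in both, Tm7sf2 and Nsdhl in KO3, and Sqle and Lss in KO4; over all tested genes KO3 listed 24.1% and KO4 11.3% at 0. The median gap between KO3 and KO4 was 0.97 on the log2(RPKM + 1) scale over the members, against 0.24 between KO1 and KO2. It was the larger of the gaps in 27 of 31 members and in 74.4% of all tested genes. The order of the KO libraries therefore differed between members, as the deviations by library show.

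**Figure D4:**
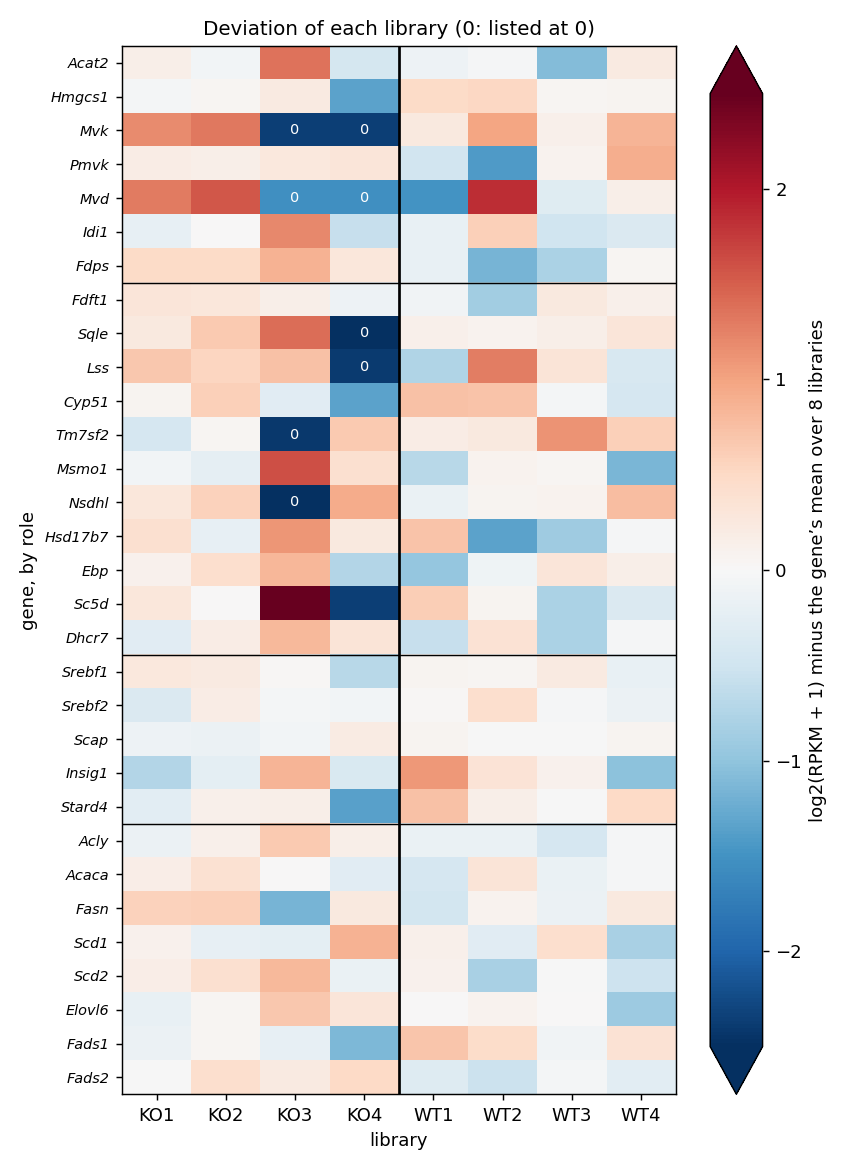
Deviation of each library (columns, 4 KO left of 4 WT) from the mean of each gene over the 8 libraries, on the log2(RPKM + 1) scale, with genes in rows by role; a printed 0 marks a value listed at 0. The 8 values listed at 0 fall in KO3 and KO4, and KO1 and KO2 resemble each other, with a median gap of 0.24.

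Genes around these pathways gave no call either. Of 11 genes that use isoprenoids, 4 had positive and 7 negative differences (median -0.01), and Fnta, the shared subunit of the protein farnesyl and geranylgeranyl transferases, had the lowest p. Fnta was at 14.8, 15.7, 21.9 and 11.8 RPKM in KO1 to KO4, against 23.4, 34.3, 23.1 and 30.7 RPKM in WT1 to WT4. Every KO library was below every WT library (-0.77 ± 0.26, adjusted p = 0.606), while Fdps, whose product it uses, lay higher in KO. Of 6 genes of SREBP processing and turnover, 5 were positive (median 0.29). Of 14 tested genes of fatty acid supply, activation and elongation, 7 were positive and 7 negative (median -0.02). Among these, Acacb, the mitochondrial carboxylase gene, was at 0.941 and 1.27 RPKM in KO1 and KO2 and listed at 0 in KO3 and KO4, against 1.498 to 3.03 RPKM in WT (adjusted p = 0.637). Of 8 tested sterol efflux, storage and LXR genes 6 were negative (median -0.44), and of 13 fatty acid oxidation genes 9 were negative (median -0.21). Over all tested genes 61.0% were negative.

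Markers of stem, progenitor and mature cells were summed by library, and of these sums only that of the granulocyte-monocyte progenitor markers did not overlap between the groups. The 6 granulocyte-monocyte progenitor markers, all tested, summed to 2068 to 7938 RPKM in KO and 606 to 1815 RPKM in WT, with KO1 highest. Of the 6, 4 had an unadjusted limma p under 0.05, all higher in KO (2.77% of all tested genes), and none passed once adjusted. None of the 6 was at 0 in every library. Kit and Ly6a, which define the gate, had differences of -0.13 and -0.18, near the -0.14 of all tested genes. Together with 6 stem and progenitor genes that are not part of the gate, they summed to 284 to 447 RPKM in KO and 412 to 527 RPKM in WT. All 8 differences were negative. Of the 6 added genes Flt3, Procr, Mecom and Hlf had an unadjusted limma p under 0.05, none past the adjusted threshold. Over all tested genes 4.74% were lower in KO at that unadjusted p. The 5 neutrophil and macrophage markers analysed here summed to 6.17 to 46.8 RPKM in KO and 1.42 to 12.2 RPKM in WT. Of the 2 that were tested, S100a9 overlapped between the groups and Csf1r did not. Csf1r was at 6.04 to 22.0 RPKM in KO and 0.542 to 5.79 RPKM in WT (limma adjusted p = 0.627). The 6 megakaryocyte-erythroid markers summed to 53.4 to 172.5 RPKM in KO and 65.1 to 137.5 RPKM in WT. The 6 lymphoid markers summed to 6.65 to 16.5 RPKM in KO and 6.72 to 18.2 RPKM in WT, most of it from Cd79b. The 6 of stroma and endothelium summed to 9.26 to 25.5 RPKM in KO and 16.7 to 27.6 RPKM in WT, with 1 of the 6 at 0 in every library. Most of this was Pecam1, at 9.25 to 23.3 RPKM in KO and 13.4 to 26.3 RPKM in WT. The other markers of that list were at most 2.47 RPKM in any library. The 7 cycling markers summed to 791 to 881 RPKM in KO and 740 to 889 RPKM in WT. The part of these marker levels in the values of the lipid genes was not tested. In bulk RNA, fewer cells of a type and less RNA per cell cannot be told apart.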

How the data were processed

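Poly(A) RNA from 100 ng of total RNA of sorted LSK cells was sequenced in 8 libraries (4 KO, 4 WT). The submitters' processing notes name TopHat, edgeR and build mm9; for their roles, versions, counting and annotation, nothing is given in the sources used here. Each library's table, as deposited by the authors, holds RPKM by Entrez gene. That unit rests on the values, which, multiplied by exon length in kilobases, sum to between 1103679 and 1119947 per library. Of 24112 gene identifiers, 24029 matched a RefSeq symbol; exon lengths and shared 50-base sequences came from GENCODE M21, which is on another build. Because RPKM are not counts, depth was estimated from values up to 0.2 RPKM of lone-transcript genes, of which 56.2% to 72.7% were whole reads within 0.03, so whole reads could not be recovered.

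The 11276 genes that reached 1 RPKM in 4 or more libraries were tested as log2(RPKM + 1), which understates the change of low genes, with limma 3.58.1 in R 4.3.3 (trend, robust). Exact permutation tests used all 70 assignments and are 2-sided. The test was checked on simulated data with independent noise per gene and no lane effect. That check does not cover the lane split or the many values listed at 0 in KO3 and KO4. The members, lists and alternatives were chosen with earlier results of these data known. Values in every library are given for members with an unadjusted p under 0.05, without overlap, or among the 2 highest of a role; those of other members were added after they were seen. Lanes were read from the library names. Alternatives changed the filter, pseudocount, normalization, lane, library weights, the replicate block and the handling of values listed at 0, or left libraries out. No 2 libraries of a group were copies: at most 6.86% of tested genes were equal, all at 0.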

Additional observations from a re-analysis of the deposited data

Results flagged for a closer look

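Each of the 31 genes was checked within each group for a library that lay far from the other 3, which makes 62 groups, and 2 had such a library; chance would give about 1 in 20. Lss was listed at 0 in KO4 (0.00 on the log2(RPKM + 1) scale), against 6.58 to 7.74 RPKM in the other KO libraries. Elovl6 was at 8.58 RPKM in WT4 (3.26 on the log2 scale), against 17.1 to 18.2 RPKM in the other WT libraries. The part of depth or lane in these values was not tested.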

How the results depend on the processing

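No member was called under any of the 18 alternatives; the lowest adjusted p of a member was that of Fdps with library weights, 0.0530 with limma, at a difference of 0.89. Genes called over all genes numbered 0 in the main analysis, 2 in lane 4 alone, 2 without WT2, KO3 and KO4, 164 with library weights and 0 to 2 when 1 library was left out (2 without KO3). Members with an unadjusted p under 0.05 numbered 3 (7.51% of all genes), but 1 with lane as a covariate (5.84% of all genes), 6 with library weights (17.7%) and 1 to 4 with 1 library left out (4.83% to 9.50%; 1 without WT2). Members without overlap numbered 2, but 10 in lane 4 alone, where 24.4% of all genes lay apart, 13 without WT2, KO3 and KO4 (34.4% of all genes), and 2 to 5 with 1 library left out (8.17% to 12.1%). The members' median was 0.04 to 0.39 with 1 library left out. The Traf6 difference was -2.52 with library weights, now past the threshold, and -2.91 to -2.62 with 1 KO library left out; where Traf6 did not pass the filter there is no value.

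The sign turned at least once in 14 members and never in 17. With quantile normalization the differences were 0.64 for Mvd, 0.41 for Lss and 0.24 for Nsdhl. With lane as a covariate, and also in lane 4 alone, they were 0.70 for Mvk, 1.37 for Mvd, 0.28 for Sqle, 0.49 for Lss, 0.083 for Cyp51, 0.23 for Nsdhl and 0.20 for Srebf1. Without WT2, KO3 and KO4 they were 0.84 for Mvk, -0.013 for Pmvk, 1.98 for Mvd, 0.25 for Sqle, 0.88 for Lss, 0.24 for Cyp51, 0.19 for Nsdhl and 0.21 for Srebf1. With library weights they were 0.63 for Mvk, 1.59 for Mvd, 0.25 for Sqle, 0.52 for Lss, 0.32 for Cyp51, 0.24 for Nsdhl, 0.15 for Srebf1, 0.078 for Srebf2 and -0.016 for Scd1. With values listed at 0 as missing, an alternative chosen after seeing the data, they were 0.70 for Mvk, 0.60 for Sqle, 0.54 for Lss and 0.40 for Nsdhl. A value at 0 was set as missing only in genes with a mean of at least 5 RPKM. Mvd, at a mean of 3.31 RPKM, therefore kept its values at 0 and its difference of -0.10. With a pseudocount of 0.1 Sc5d was at -0.13. With 1 library left out the ranges were -0.63 to 0.50 for Mvd, -0.14 to 0.46 for Idi1, -0.86 to 0.60 for Sqle, -0.51 to 0.54 for Lss, -0.76 to 0.40 for Nsdhl, -0.58 to 1.04 for Sc5d, -0.19 to 0.13 for Srebf1, -0.63 to 0.072 for Insig1 and -0.044 to 0.54 for Fasn. Among the members, values listed at 0 fall in KO3 and KO4 alone, so leaving them out can only raise a difference. The cause of the turned signs was not tested.

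Same-numbered KO and WT libraries did not deviate together (correlations -0.0799 to -0.0382), and 0 of 4 KO libraries matched their own number best. So few correlations cannot exclude a pairing by number. With the replicate block 0 genes and 0 members were called, 2 members had an unadjusted p under 0.05 (6.25% of all genes) and the median stayed 0.14. Library weights were 6.503 for KO2, 0.351 for KO4 and 0.137 for KO3. Depth is an estimate, and 0 in KO3 or KO4 does not show absence.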
